A study of Gallus gallus with 6 samples.

Results

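The extracellular matrix genes of the chick heart are described here: collagens, laminins, elastic fibre proteins, proteoglycans, adhesive proteins, the enzymes that fold and cross-link collagen, matrix metalloproteinases and their inhibitors. They were picked by gene symbol from a fixed pattern of names, which was chosen with earlier results of these data known. The pattern held the COL, LAM, FBLN, FBN, ADAMTS, MMP, TIMP, LOX, PLOD, P4HA, THBS and MATN families, of which FBN and ADAMTS matched no row. It also held single genes such as FN1, ELN, SPARC and TGM2, the last of which the study had reported as lower in these hearts. The pattern matched 57 of 6919 transcript rows, with 54 of 6542 gene symbols. Of these, 42 had a mean of at least 1 RPKM (reads per kilobase of transcript, scaled to 1000000 reads) and were tested among 4726 transcripts in all.

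Whole hearts of Dekalb white strain chick embryos were sequenced at HH29 (Hamburger-Hamilton stage 29). In OFT-banded embryos a suture was tied around the outflow tract at HH21, which loads the ventricles, and in sham embryos the suture was passed under the tract and taken away. Each group held 3 hearts with 1 library per heart, called here by the numbers in the column names (OFT-banded hearts 6, 11 and 17; sham hearts 38, 48 and 42). All libraries were depleted of globin RNA before polyA selection. No gene was altered in either group, and all cell types of the heart, with its blood, were read together.

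The matrix is the protein and sugar scaffold outside cells. In the embryonic heart it fills the endocardial cushions that become valves and septa, forms the basement membranes under endocardium and around cardiomyocytes, and is laid down by cushion cells, epicardium-derived fibroblasts and the wall of the outflow tract. Collagen chains are hydroxylated and folded in the endoplasmic reticulum, assembled as trimers, secreted and then cross-linked, and metalloproteinases with their inhibitors set how fast the scaffold turns over.

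The steps between low values gave relative depths, in units of 1000000 reads, of 30.1 to 41.1 in OFT-banded hearts and 21.2 to 37.5 in sham hearts, the lowest in heart 42. Most red cell genes had lower values in the OFT-banded hearts. Of 10 tested rows of the erythroid marker list 9 had lower values, beside 63.2% of all tested transcripts. At an unadjusted p under 0.05 in limma 5 were called lower and CA2 (log2 fold change 0.53) was called higher (beside 5.29% and 3.28%). The 14 rows of that list summed, mostly through HBE, to 6260 to 12335 RPKM in OFT-banded hearts and 16391 to 41888 RPKM in sham hearts, with HBZ at 0 and HBAA at 0.04 or less throughout. The 10 rows of the cardiomyocyte list summed to 71154 to 77304 RPKM in OFT-banded hearts and 50913 to 65818 RPKM in sham hearts and all 10 were detected in every heart. The part of these shifts in the matrix values was not tested. In whole hearts, fewer cells of a type and less RNA per cell cannot be told apart. The globin depletion was aimed at HBAA, HBAD, HBB, HBG1, HBG2 and HBZ. For globin rows, what the depletion left behind cannot be told apart from either, so their sums do not measure the globin RNA of the hearts.

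The matched matrix rows held a small share of all RPKM, and few genes held much of it. These rows do not cover the whole matrix. Of 11 listed fibrillar collagen genes 4 had a row, with none for COL1A1, and of 23 listed basement membrane genes 6 had a row. The 57 rows took 0.306%, 0.477% and 0.494% of all RPKM in OFT-banded hearts 6, 11 and 17, against 0.377%, 0.506% and 0.526% in sham hearts 38, 48 and 42. The means were 0.426% ± 0.104 in OFT-banded hearts and 0.469% ± 0.0807 in sham hearts (SD, n = 3 each), so the groups overlapped and the lowest share in each came from 1 heart, 6 or 38. The 5 most abundant members held 45.8 to 51.2% of the matrix total in every heart.

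SPARC, which encodes osteonectin, a calcium- and collagen-binding glycoprotein, was the most abundant member in all 6 hearts. It stood at 339, 554 and 664 RPKM in OFT-banded hearts 6, 11 and 17, and at 449, 638 and 689 RPKM in sham hearts 38, 48 and 42. By mean it was number 199 among all transcripts. COL1A2, FN1, POSTN and COL3A1 followed, and these 5 genes are the left end of the plot of abundant members by heart.

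**Figure D1:**
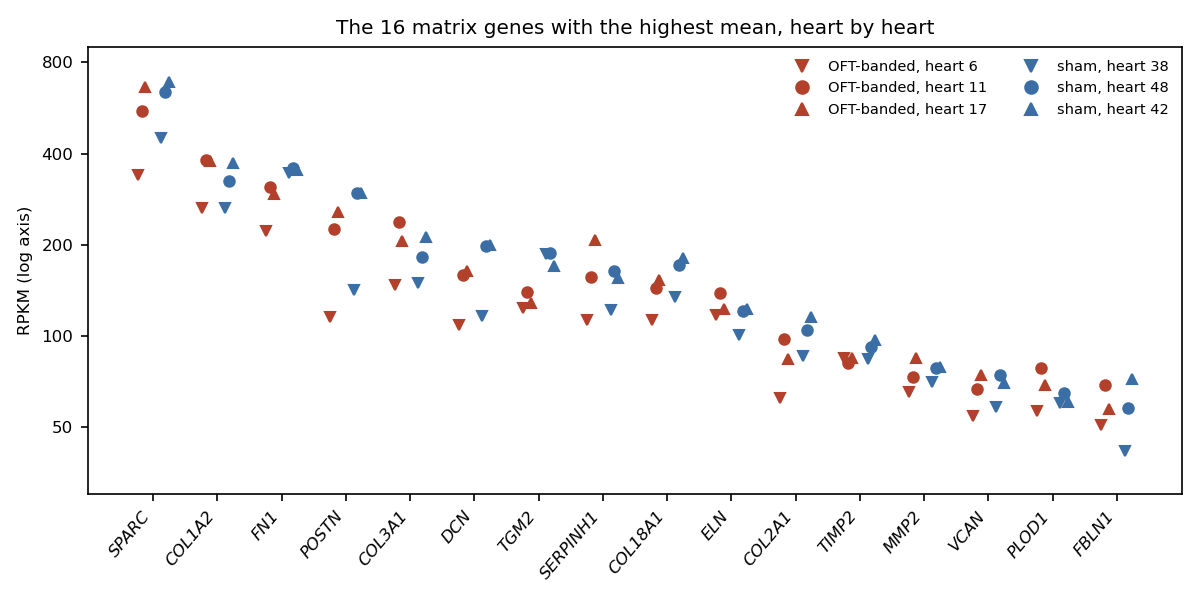
The 16 matrix genes with the highest mean, ordered by it along the horizontal axis, with RPKM on a logarithmic vertical axis. Each point is 1 heart, red for OFT-banded and blue for sham. Downward triangles mark hearts 6 and 38, which sit lowest of their group for SPARC (339 and 449 RPKM), POSTN (115 and 142 RPKM) and most other genes, while TGM2 and FN1 show red points wholly below blue.

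No matrix gene passed the test across all genes. With limma on log2(RPKM + 1), 0 of 42 members and 0 of 4726 transcripts (0%) had an adjusted p under 0.05. At an unadjusted p under 0.05, 4 of 42 members (9.52%) were called, beside 8.57% of all tested transcripts. TGM2, FN1 and LAMB2 were lower in OFT-banded hearts, 3 of 42 beside 5.29% of all transcripts, and COL9A2 was higher, 1 of 42 beside 3.28%. The same 4 genes were the members whose OFT-banded and sham hearts did not overlap, where the background was 16.3% in either direction, 11% lower and 5.23% higher. The share of matrix genes called was thus near the background by p and below it by overlap. These counts include TGM2, which the study had already reported as lower in these same hearts when the pattern was chosen. Its place in them is therefore not an independent result.

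By sign alone, 22 of 42 members (52.4%) had a log2 fold change above 0, beside 36.8% of all tested transcripts, and 20 (47.6%) one below 0, beside 63.2%. The median log2 fold change was 0.03 over the members and -0.07 over all transcripts. The sign count moved with single hearts. The members above 0 were 31 without heart 6 (beside 44.1% of all tested transcripts) and 13 without heart 11 (beside 34.4%). They were 13 without heart 17 (beside 36.2%) and 11 without heart 38 (beside 36.9%). The background moved with scaling as well. The members above 0 were 27 with median-ratio scaling (beside 48.8%). They were 21 with rescaling to the same sum (beside 30.9%) and 21 without globin rows (beside 30.7%). Of all transcripts called at the unadjusted threshold 38.3% were higher in OFT-banded hearts as deposited, 56.8% after median-ratio scaling and 25.7% with the globin rows left out, and the members called higher and lower were 1 and 3 as deposited, 2 and 3, and 0 and 3.

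**Figure D2:**
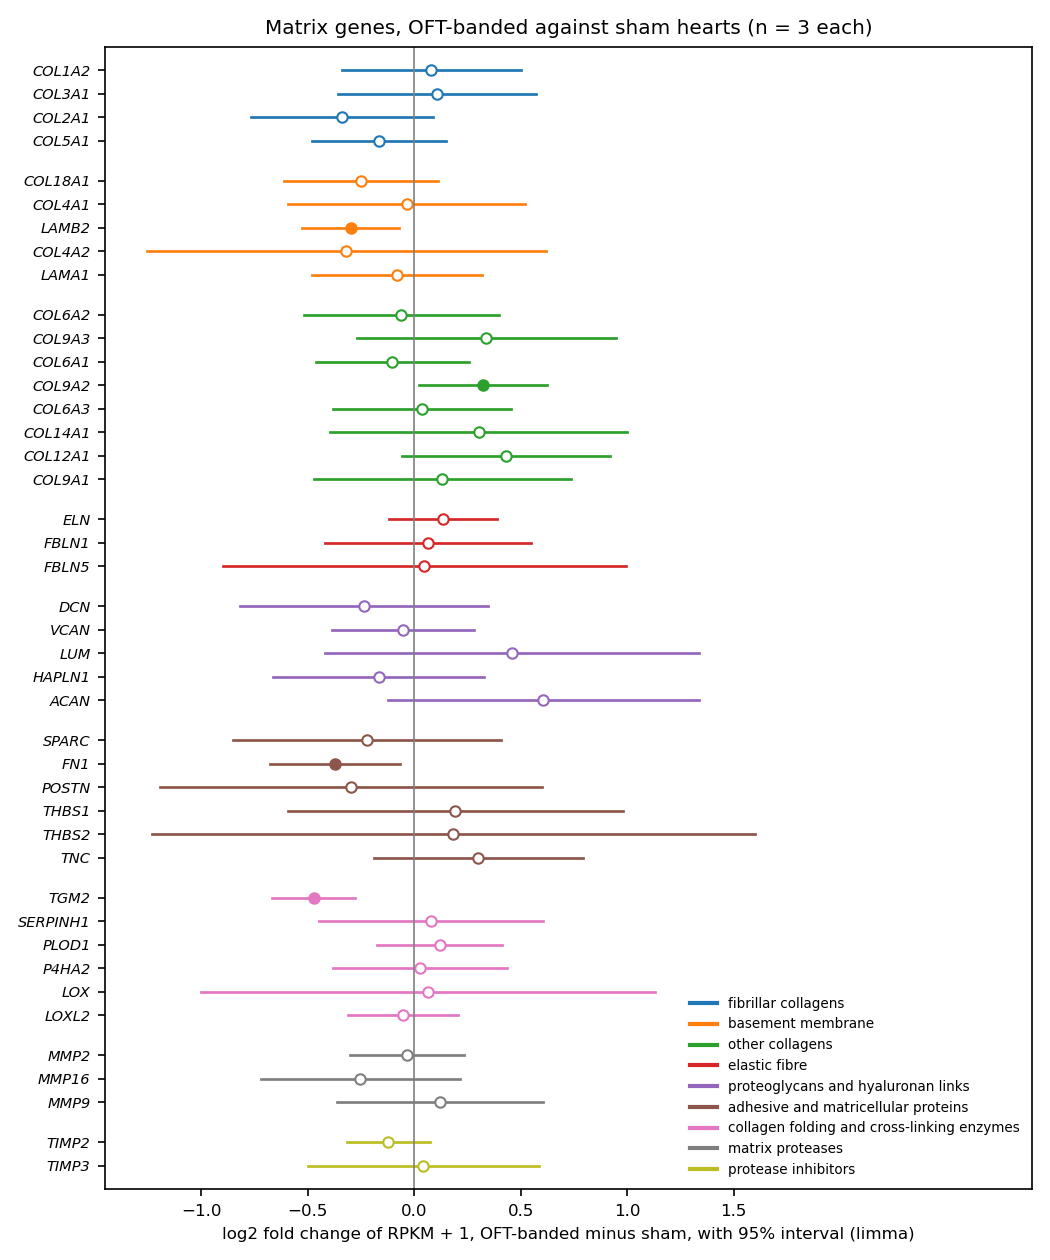
Log2 fold change of RPKM + 1, OFT-banded minus sham, on the horizontal axis for the 42 tested members, with 95% intervals from limma (3 hearts per group) and colours for the role groups. Filled points are genes whose groups did not overlap. The intervals of TGM2 (-0.67 to -0.28), FN1 (-0.68 to -0.07) and LAMB2 (-0.52 to -0.07) lie below 0 and that of COL9A2 (0.03 to 0.63) lies above it, whereas the other 38 cross 0.

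The fibrillar collagens form the tensile fibres of the matrix. COL1A2, the alpha-2 chain of collagen I, had 265, 379 and 377 RPKM in OFT-banded hearts 6, 11 and 17, against 265, 325 and 371 RPKM in sham hearts 38, 48 and 42. COL3A1, the chain of collagen III, had 147, 237 and 206 RPKM in OFT-banded hearts and 149, 182 and 212 RPKM in sham hearts. For both, the lowest heart of each group was at nearly the same level and the groups overlapped fully, with log2 fold changes of 0.08 (95% interval -0.34 to 0.50) and 0.11 (-0.36 to 0.57).

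COL2A1, the chain of collagen II, known from cartilage and also made in embryonic heart cushions, had 62.1, 97.2 and 83.9 RPKM in OFT-banded hearts and 86.0, 104 and 115 RPKM in sham hearts. COL5A1, a chain of collagen V that starts fibril assembly, had 42.5, 57.5 and 51.3 RPKM in OFT-banded hearts and 60.9, 50.2 and 58.3 RPKM in sham hearts. Heart 6 was the lowest for both, and the groups overlapped, with log2 fold changes of -0.34 (-0.76 to 0.09) for COL2A1 and -0.17 (-0.48 to 0.15) for COL5A1. The 4 fibrillar genes had a median of -0.04, against -0.07 over all transcripts, and that median turned to 0.02 with median-ratio scaling.

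Basement membrane genes build the thin sheets under endocardium and around muscle cells. All 5 tested members had log2 fold changes below 0, beside 63.2% of all tested transcripts, with a median of -0.25. With median-ratio scaling 4 of the 5 were below 0, where 48.8% of all tested transcripts were above 0. With heart 6 left out 2 of the 5 were below 0, with a median of 0.01, where 44.1% of all tested transcripts were above 0. LAMB2, the laminin beta-2 chain, had 38.9, 37.7 and 35.0 RPKM in OFT-banded hearts 6, 11 and 17, against 43.2, 44.5 and 50.3 RPKM in sham hearts 38, 48 and 42. The groups did not overlap. Heart 6 was the highest OFT-banded heart and heart 38 the lowest sham heart, so these 2 lay nearest to each other. The means were 37.2 ± 2.01 RPKM in OFT-banded and 46.0 ± 3.80 RPKM in sham hearts (SD, n = 3 each). The log2 fold change was -0.30 (standard error 0.097), with an adjusted p = 0.543 and an unadjusted p = 0.0174 from limma. The unadjusted p became 0.0650 without heart 17 and 0.0576 without heart 42.

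COL18A1, which carries endostatin in its tail, had 113, 143 and 153 RPKM in OFT-banded hearts and 134, 171 and 180.3 RPKM in sham hearts. Heart 6 was lowest in its group and heart 38 in the other, and each OFT-banded heart lay below its counterpart in rank order, but the groups overlapped (log2 fold change -0.25, 95% interval -0.61 to 0.11). The 2 main collagen IV chains, COL4A1 and COL4A2, make the network of the sheet. COL4A1 had 36.6, 56.2 and 65.7 RPKM in OFT-banded hearts and 41.4, 61.1 and 57.6 RPKM in sham hearts. COL4A2 had 13.3, 30.5 and 33.7 RPKM in OFT-banded hearts and 18.9, 39.2 and 36.8 RPKM in sham hearts. The spread between hearts of 1 group was larger than any difference between groups for both, with log2 fold changes of -0.03 and -0.32, and COL4A1 turned to 0.03 with median-ratio scaling. LAMA1, the laminin alpha-1 chain, stayed between 2.24 and 3.10 RPKM in OFT-banded hearts and 2.69 and 2.99 RPKM in sham hearts.

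The other collagens had 6 of 8 tested members above 0, beside 36.8% of all tested transcripts, and a median of 0.22. Without heart 38 the count was 3 of 8, beside 36.9% of all tested transcripts, and the median -0.03. COL9A2, a chain of collagen IX that sits on the surface of collagen II fibrils, had 16.9, 15.3 and 19.2 RPKM in OFT-banded hearts, against 12.2, 14.4 and 13.7 RPKM in sham hearts. The OFT-banded hearts were all higher, heart 11 by less than 1 RPKM over heart 48. The means were 17.1 ± 1.94 RPKM in OFT-banded and 13.4 ± 1.10 RPKM in sham hearts (SD, n = 3 each). The log2 fold change was 0.33 (standard error 0.127), with an adjusted p = 0.543 and an unadjusted p = 0.0374 from limma. That unadjusted call was lost in each fit that left out heart 6, 17, 38, 48 or 42 (p up to 0.139), with values rescaled to the same sum (0.0872) and with the globin rows left out (0.0635).

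The partner chain COL9A3 had 22.3, 31.4 and 43.8 RPKM in OFT-banded hearts and 20.2, 23.5 and 31.3 RPKM in sham hearts. Heart 17 was highest and heart 42 was level with heart 11, so the groups overlapped (log2 fold change 0.34, 95% interval -0.27 to 0.95). COL12A1, which lies along collagen I fibrils, had 3.18, 5.09 and 5.35 RPKM in OFT-banded hearts and 2.67, 3.19 and 3.29 RPKM in sham hearts. Only heart 6 fell among the sham values, and the log2 fold change was 0.43 (-0.06 to 0.92). Without heart 6 it was 0.62, with an unadjusted p = 0.0101 and an adjusted p = 0.663 from limma. COL14A1, of the same kind, had 6.02, 8.96 and 6.48 RPKM in OFT-banded hearts and 3.17, 7.10 and 7.24 RPKM in sham hearts. Its value of 0.30 turned to -0.02 without heart 38, the only sham heart below every OFT-banded heart.

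Collagen VI makes beaded filaments next to cells from 3 chains. COL6A2 had 22.7, 35.9 and 34.9 RPKM in OFT-banded hearts and 28.7, 37.3 and 30.2 RPKM in sham hearts, and COL6A1 had 15.3, 22.5 and 16.7 RPKM in OFT-banded hearts and 18.4, 19.7 and 19.9 RPKM in sham hearts. Both groups overlapped for each chain, with log2 fold changes of -0.06 and -0.10. COL6A3 and COL9A1, the remaining tested collagens of this group, had log2 fold changes of 0.04 and 0.13, at 5.69 to 8.67 and 1.03 to 2.06 RPKM in OFT-banded hearts and 6.26 to 7.52 and 0.76 to 1.69 RPKM in sham hearts.

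Since collagen II, collagen IX and aggrecan are also cartilage proteins, 3 further cartilage markers were read beside them. SOX9, a cartilage and valve transcription factor, had 2.21, 2.19 and 4.23 RPKM in OFT-banded hearts and 2.44, 1.28 and 1.13 RPKM in sham hearts. LECT1, which encodes chondromodulin, had 86.1, 98.3 and 108 RPKM in OFT-banded hearts and 109, 67.6 and 106 RPKM in sham hearts. EPYC was at 0.27 RPKM or less and MATN1 at 0.13 RPKM or less in every heart. The 10 rows of the list, which holds 7 matrix members, summed to 192 to 265 RPKM in OFT-banded hearts and 215 to 271 RPKM in sham hearts, mostly through COL2A1 and LECT1. Of its 7 tested rows, 5 of them matrix members, 6 had log2 fold changes above 0 (SOX9 0.56), beside 36.8% of all tested transcripts. The median of the 7 rows was 0.33, and their part in the matrix values was not tested.

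Elastic fibres let the arterial wall and valves recoil. ELN, tropoelastin, had 117, 138 and 122 RPKM in OFT-banded hearts 6, 11 and 17, against 101, 121 and 122 RPKM in sham hearts 38, 48 and 42. FBLN1, fibulin-1, had 50.6, 68.6 and 57.3 RPKM in OFT-banded hearts and 41.6, 57.7 and 71.8 RPKM in sham hearts. FBLN5, fibulin-5, had 1.35, 3.86 and 3.46 RPKM in OFT-banded hearts and 1.17, 4.06 and 3.20 RPKM in sham hearts. For ELN, 1 sham heart lay below all OFT-banded hearts (log2 fold change 0.14, 95% interval -0.12 to 0.39), and FBLN1 and FBLN5 were at 0.07 and 0.05. The 5 rows of the smooth muscle marker list summed to 275 to 405 RPKM in OFT-banded hearts and 240 to 281 RPKM in sham hearts. Of these, 2 of 5 were called higher (CALD1 and TAGLN), beside 3.28% of all tested transcripts, and the groups overlapped for TAGLN. By sign, 3 were above 0, with ACTA2 at 0.12, and 2 below it, MYH11 (-0.21) and MYOCD (-0.27). The part of smooth muscle in the elastin values was not tested.

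Among proteoglycans and hyaluronan links, DCN, which encodes decorin, a small leucine-rich proteoglycan that coats collagen fibrils, had 108, 159 and 164 RPKM in OFT-banded hearts and 117, 197 and 200.1 RPKM in sham hearts. LUM, which encodes lumican, of the same family, had 23.0, 43.8 and 37.0 RPKM in OFT-banded hearts and 13.3, 32.0 and 32.3 RPKM in sham hearts. Hearts 6 and 38 were lowest for both genes, and when the other hearts alone are read, decorin was lower and lumican higher in OFT-banded hearts. Over all hearts the log2 fold changes were -0.24 (95% interval -0.82 to 0.35) for DCN and 0.46 (-0.42 to 1.34) for LUM. Without heart 38 they were -0.49 (unadjusted p = 0.0360, adjusted p = 0.348 from limma) and 0.05, and without heart 6 they were -0.04 and 0.72.

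VCAN, which encodes versican, the large hyaluronan-binding proteoglycan of the cushions, had 54.3, 66.8 and 74.2 RPKM in OFT-banded hearts and 58.2, 73.9 and 69.6 RPKM in sham hearts. HAPLN1, the link protein that fixes versican to hyaluronan, had 1.26, 2.10 and 2.23 RPKM in OFT-banded hearts and 1.89, 2.19 and 2.46 RPKM in sham hearts. Both groups overlapped, with log2 fold changes of -0.05 for VCAN, which turned to 0.01 with median-ratio scaling, and -0.17 for HAPLN1. ACAN, which encodes aggrecan, had 1.17, 2.94 and 3.46 RPKM in OFT-banded hearts and 1.09, 1.66 and 0.94 RPKM in sham hearts. Hearts 11 and 17 lay above every sham heart and heart 6 among them. ACAN had the largest log2 fold change of the 42 members as deposited, 0.61 (-0.12 to 1.34), at a low level, and without heart 6 it was 0.92, with an unadjusted p = 0.00595 and an adjusted p = 0.604 from limma.

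The adhesive and matricellular proteins link cells to the scaffold or tune that contact. FN1, fibronectin, on which cushion cells and epicardial cells migrate, had 221, 309 and 294 RPKM in OFT-banded hearts 6, 11 and 17, against 345, 357 and 354 RPKM in sham hearts 38, 48 and 42. The sham hearts lay close together and the OFT-banded hearts were all lower, heart 6 the farthest. The means were 275 ± 47.0 RPKM in OFT-banded and 352 ± 6.06 RPKM in sham hearts (SD, n = 3 each). The log2 fold change was -0.37 (standard error 0.129), with an adjusted p = 0.543 and an unadjusted p = 0.0233 from limma. Without heart 6 it was -0.22, and the unadjusted p became 0.0604 without heart 48, 0.0539 without heart 42 and 0.0792 with the gene-span trend removed.

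POSTN, which encodes periostin, a matricellular protein of cushion and valve mesenchyme, had 115, 226 and 257 RPKM in OFT-banded hearts and 142, 296 and 297 RPKM in sham hearts. Hearts 6 and 38 held about the same low level, and both of the other OFT-banded hearts lay below both of the other sham hearts (log2 fold change -0.30, 95% interval -1.19 to 0.60). SPARC, given above, had a log2 fold change of -0.22 (-0.85 to 0.41), which was 0.06 without heart 6. THBS1, thrombospondin-1, an activator of latent TGF-beta, had 14.8, 32.5 and 39.0 RPKM in OFT-banded hearts and 19.3, 24.2 and 26.7 RPKM in sham hearts. Its OFT-banded hearts lay on both sides of the sham range (log2 fold change 0.19, -0.59 to 0.98). Without heart 6 it was 0.60 (unadjusted p = 0.00959, adjusted p = 0.663 from limma), and without heart 17 it was -0.07. TNC, tenascin-C, had 1.33, 2.13 and 1.50 RPKM in OFT-banded hearts and 0.98, 1.40 and 1.05 RPKM in sham hearts, with heart 48 between hearts 6 and 17 (log2 fold change 0.30, -0.19 to 0.79).

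The enzymes that fold and cross-link collagen held the clearest single difference. TGM2, tissue transglutaminase, which joins matrix proteins by isopeptide bonds and is also abundant in chicken red cells, had 123, 139.6 and 128 RPKM in OFT-banded hearts 6, 11 and 17, against 187, 187 and 169 RPKM in sham hearts 38, 48 and 42. No OFT-banded heart came near the sham range, and hearts 6 and 38 did not stand apart. The means were 130.4 ± 8.39 RPKM in OFT-banded and 181 ± 10.1 RPKM in sham hearts (SD, n = 3 each). The log2 fold change was -0.47 (standard error 0.083), with an adjusted p = 0.543 and an unadjusted p = 0.000707 from limma. It stayed between -0.52 and -0.41 in every alternative, with unadjusted p of 0.00656 or less and adjusted p of 0.253 to 0.985. The study lists TGM2 as lower among the genes that passed its corrected threshold in DESeq on these same hearts, whereas it did not pass adjustment in limma here. Since the hearts are the same, its direction is not independent evidence. The red cell gene HBE was lower in the same hearts (6490, 5303 and 10572 RPKM in OFT-banded hearts and 18595, 14107 and 36922 RPKM in sham hearts). Of the 10 tested rows of the erythroid list 9 were lower, and CA2 was higher. All libraries were depleted of globin RNA, so the order of hearts for HBE need not follow their red cell content. Heart 42 had the most HBE and the least TGM2 of the sham hearts. Heart 17 had the most HBE of the OFT-banded hearts, and heart 11 the most TGM2. The part of red cells in the TGM2 values was not tested.

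**Figure D3:**
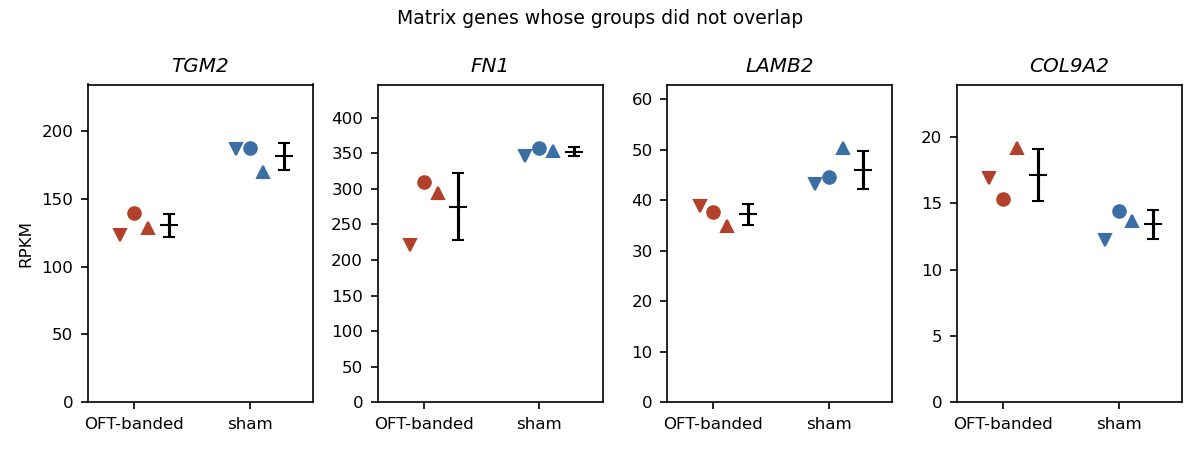
RPKM of the 4 matrix genes whose groups did not overlap, on linear axes that start at 0. Points are hearts (red OFT-banded 6, 11 and 17 from left to right, blue sham 38, 48 and 42), and the black marks are the mean and SD of each group. TGM2 (130.4 and 181 RPKM on average in OFT-banded and sham hearts) has the widest gap for its spread, and COL9A2 (17.1 and 13.4 RPKM) the narrowest.

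SERPINH1, which encodes HSP47, the collagen chaperone, had 112, 157 and 208 RPKM in OFT-banded hearts and 122, 163 and 155 RPKM in sham hearts. PLOD1, a lysyl hydroxylase, had 56.4, 78.0 and 68.7 RPKM in OFT-banded hearts and 60.0, 64.8 and 60.6 RPKM in sham hearts. P4HA2, a prolyl 4-hydroxylase subunit, had 26.2, 34.3 and 22.3 RPKM in OFT-banded hearts and 30.1, 23.3 and 27.0 RPKM in sham hearts. None of the 3 separated the groups, with log2 fold changes of 0.08, 0.12 and 0.03, although for PLOD1 hearts 11 and 17 lay above every sham heart. LOX and LOXL2, copper enzymes that start cross-links in collagen and elastin, behaved differently from each other. LOX had 10.8, 25.2 and 24.1 RPKM in OFT-banded hearts and 9.03, 26.5 and 23.6 RPKM in sham hearts, split by heart and not by group. LOXL2 had 13.4, 15.3 and 13.9 RPKM in OFT-banded hearts and 15.4, 14.4 and 14.5 RPKM in sham hearts, the most even member of all with a coefficient of variation of 5.45% over the 6 hearts.

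The proteases were led by MMP2, gelatinase A, at 64.9, 73.1 and 84.4 RPKM in OFT-banded hearts and 70.1, 78.1 and 78.5 RPKM in sham hearts. MMP16, a membrane-bound protease that activates MMP2, had 3.09, 4.66 and 4.98 RPKM in OFT-banded hearts and 4.41, 5.49 and 5.66 RPKM in sham hearts. MMP9, gelatinase B, had 5.45, 4.34 and 4.62 RPKM in OFT-banded hearts and 3.13, 4.61 and 5.49 RPKM in sham hearts. All 3 overlapped, with log2 fold changes of -0.03, -0.25 and 0.12, and that of MMP9 was -0.06 without heart 38. Among the inhibitors, TIMP2 had 84.4, 81.1 and 84.1 RPKM in OFT-banded hearts and 83.6, 91.8 and 96.6 RPKM in sham hearts. TIMP3, which stays bound to the matrix, had 22.1, 34.7 and 44.7 RPKM in OFT-banded hearts and 31.2, 31.2 and 32.3 RPKM in sham hearts. TIMP3 had a narrow spread in sham hearts and a wide one in OFT-banded hearts, around nearly the same mean (33.8 ± 11.3 RPKM in OFT-banded and 31.6 ± 0.647 RPKM in sham hearts, SD, n = 3 each), and TIMP2 had a log2 fold change of -0.12 (95% interval -0.31 to 0.07).

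The 15 rows below the mean of 1 RPKM carried 12 symbols. COL8A1, COL17A1, COL20A1, COL22A1, LAMB4, MATN1 and MATN3 were low in every heart, and the secreted proteases MMP7, MMP10, MMP13 and MMP27 were at or near 0. MMP13, a collagenase of growing bone, had 0.03, 0.13 and 0.01 RPKM in OFT-banded hearts and 0.22, 0.20 and 0.57 RPKM in sham hearts, too few reads to compare. P4HA1, the main prolyl 4-hydroxylase subunit in most tissues, is listed at 0 in all 4 of its transcript rows. Symbols with more than 1 transcript row had a median summed mean of 0.0908 RPKM (252 symbols), against 14.4 RPKM for symbols with 1 row (6290 symbols), so a listed 0 for P4HA1 does not show that the gene was silent.

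The matrix genes also differed between hearts of the same group. Heart 6 was the lowest OFT-banded heart for 37 of 42 members (88.1%), beside 54.8% of all tested transcripts, and heart 38 was the lowest sham heart for 36 of 42 (85.7%), beside 46.3%. Both held for 32 of 42 members (76.2%), beside 36%. At the other end, heart 17 was the highest OFT-banded heart for 20 of 42 members (47.6%), beside 34% of all tested transcripts. In median, heart 6 lay -0.47 on the log2 scale from the mean of hearts 11 and 17 over the members and -0.11 over all transcripts. Heart 38 lay -0.29 from the mean of hearts 48 and 42 over the members and -0.06 over all transcripts. Lists of related genes outside the name pattern differed in this. Among 10 tested matrix receptor genes, heart 6 was lowest for 8 and heart 38 for 7, with medians of -0.32 and -0.25. Among 17 collagen secretion genes the counts were 9 and 5, with medians of -0.06 and -0.02. Among 20 other matrix proteins they were 10 and 8, with medians of -0.21 and -0.01. These are descriptions with no test, since the genes share hearts and libraries.

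The gap of heart 6 was widest for THBS2. The gene, which encodes thrombospondin-2, had 3.20, 12.9 and 17.8 RPKM in OFT-banded hearts 6, 11 and 17, and 4.04, 12.1 and 10.4 RPKM in sham hearts 38, 48 and 42. Heart 6 thus held 0.208 of the mean of hearts 11 and 17, and heart 38 held 0.359 of the mean of hearts 48 and 42. The same fractions were 0.440 and 0.361 for LOX, 0.369 and 0.322 for FBLN5, 0.478 and 0.479 for POSTN, 0.569 and 0.414 for LUM and 0.413 and 0.498 for COL4A2. LAMB2 (1.07 and 0.910), TGM2 (0.919 and 1.05), TIMP2 (1.02 and 0.888) and LOXL2 (0.915 and 1.06) were among the members that did not follow. These 10 genes were chosen for the text after their values were seen.

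**Figure D4:**
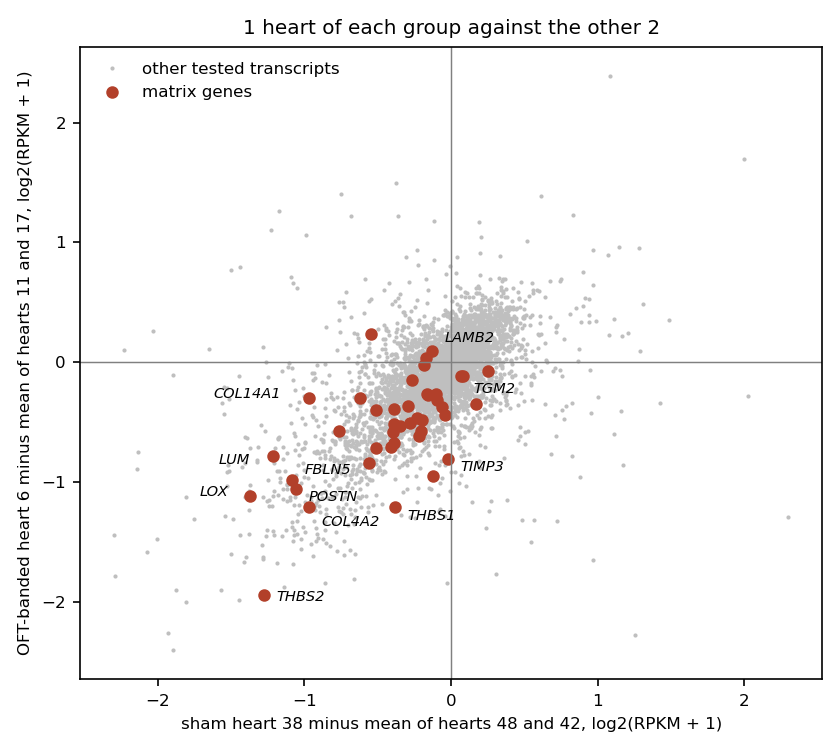
Each tested transcript by how far heart 6 lay from the mean of hearts 11 and 17 (vertical axis, OFT-banded) and heart 38 from the mean of hearts 48 and 42 (horizontal axis, sham), both as log2(RPKM + 1). Red points are the 42 matrix genes and grey points the other transcripts. Most red points sit in the lower left, THBS2 farthest down, with medians of -0.47 and -0.29, and LAMB2 and TGM2 sit near 0.

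Hearts 6 and 38 were also low in long genes at large. Over 4689 tested transcripts with a gene span, the rank correlation of span with the heart 6 difference was -0.40 and with the heart 38 difference -0.34, given as descriptions across genes that share these libraries. Matrix genes are long, with a median span of 35.8 kb against 14.8 kb over all tested transcripts. Among genes with a span above 23.9 kb, the 28 members had median differences of -0.50 in heart 6 and -0.29 in heart 38, and the 1535 other transcripts -0.24 and -0.17. The 4 members with a span of up to 8.52 kb, SPARC, SERPINH1, COL2A1 and MMP9, had medians of -0.61 and -0.47. The 1559 other transcripts of that span were at 0.06 and 0.06. MMP9 went the other way in heart 6 (0.24), and the span of COL2A1 in the gene table (2.94 kb) may be cut short. Within the 42 members the rank correlations with span were -0.13 for heart 6 and -0.02 for heart 38. In the epicardial and fibroblast marker list, whose 8 rows summed to 352, 437 and 372 RPKM in OFT-banded hearts 6, 11 and 17 and 334, 350 and 444 RPKM in sham hearts 38, 48 and 42, the medians were -0.18 and -0.04. The 8 rows of the endothelial list summed to 406, 449 and 420 RPKM in OFT-banded hearts and 359, 461 and 458 RPKM in sham hearts, with medians of -0.28 in heart 6 and -0.38 in heart 38, which was lowest of its group for all 8. The smooth muscle list had medians of -0.53 and -0.02. The erythroid list had medians of -0.46 and -1.10. The cardiomyocyte list went the other way in median, at 0.13 and 0.16. Heart 6 was lowest of its group for 4 of its 10 rows and heart 38 for 0. The part of gene length, RNA quality or cell makeup in the low matrix values of these hearts was not tested.

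With both hearts left out, a fit added after the values were seen, the counts were larger. At the unadjusted threshold 4 members were higher in OFT-banded hearts (ACAN, COL12A1, THBS1 and LUM) and 6 lower (TGM2, FN1, LAMB2, DCN, POSTN and COL18A1), beside 4.8% and 10.2% of all tested transcripts. Between 2 and 2 hearts, 13 of 42 members did not overlap and were higher, beside 18.4% of all tested transcripts, and 10 were lower, beside 33.6%. No member passed adjustment, with adjusted p of 0.253 or more from limma. The log2 fold changes were 0.88 for ACAN, 0.55 for COL12A1, 0.47 for THBS1 and 0.32 for LUM, and -0.41 for TGM2, -0.24 for FN1, -0.37 for LAMB2, -0.30 for DCN, -0.30 for POSTN and -0.25 for COL18A1. All transcripts gave 227 calls higher and 484 lower in the same fit, so the counts rose outside the matrix genes as well.

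Ratios within a heart set chains or partners against each other and do not depend on scaling between hearts. For the 10 ratios computed, the exact two-sided permutation test over 3 against 3 hearts cannot go below 0.1. LUM to DCN, a pair of neighbouring genes, was 0.212, 0.276 and 0.225 in OFT-banded hearts 6, 11 and 17, against 0.114, 0.162 and 0.161 in sham hearts 38, 48 and 42. The groups did not overlap, with the low matrix hearts 6 and 38 at the bottom of their groups. The means were 0.238 ± 0.0337 in OFT-banded and 0.146 ± 0.0275 in sham hearts, a log2 difference of 0.72 (exact permutation p = 0.1, the smallest possible, 0.8 after Benjamini-Hochberg adjustment over the 10 ratios). The ratio was chosen after the values were seen.

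COL4A1 to COL4A2, neighbours that share a promoter region in human and mouse, was 2.76, 1.84 and 1.95 in OFT-banded hearts, against 2.18, 1.56 and 1.57 in sham hearts. Here the low matrix hearts had the highest ratio of their group, and the log2 difference was 0.30 (exact permutation p = 0.3). COL1A2 to COL3A1 was nearly constant, at 1.80, 1.60 and 1.83 in OFT-banded hearts, against 1.78, 1.79 and 1.75 in sham hearts (exact permutation p = 1), although each gene alone varied between hearts. COL6A1 and COL6A2 to COL6A3 differed by -0.15 and -0.10 on the log2 scale (exact permutation p = 0.4 each). The other 5 ratios, HAPLN1 to VCAN (-0.21), COL6A1 to COL6A2 (-0.05), COL9A3 to COL9A2 (0.00), COL9A2 to COL9A1 (0.10) and LOX to LOXL2 (0.13), had exact permutation p of 0.3 to 1.

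**Figure D5:**
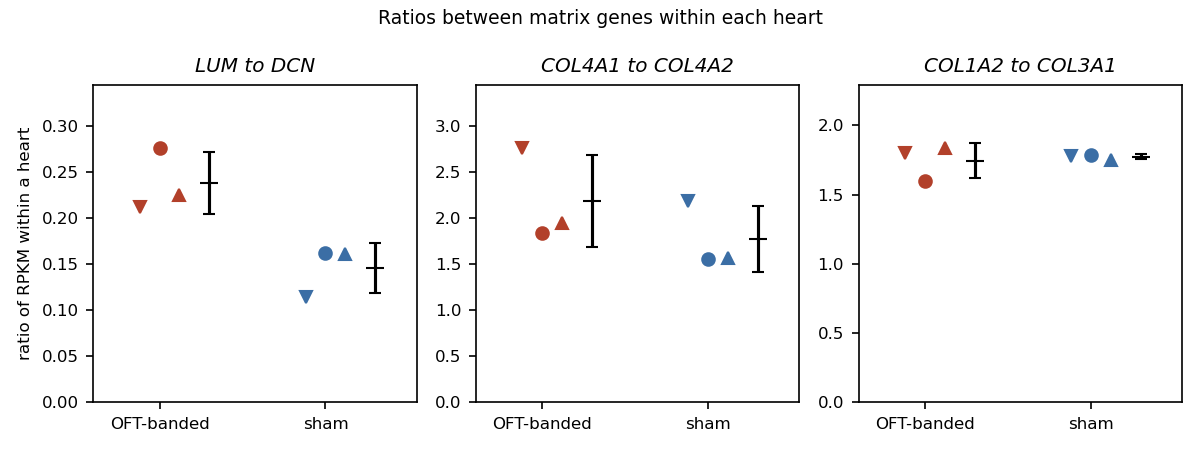
Ratio of RPKM between a pair of matrix genes within each heart, on linear vertical axes that start at 0. Points are hearts (red OFT-banded 6, 11 and 17 from left to right, blue sham 38, 48 and 42), and black marks are the mean and SD of each group. LUM to DCN separates the groups (0.238 and 0.146 on average in OFT-banded and sham hearts), COL4A1 to COL4A2 overlaps, and COL1A2 to COL3A1 stays between 1.60 and 1.83.

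Genes that work with the matrix but lie outside the name pattern were read from 3 lists (collagen secretion and processing, other matrix proteins, matrix receptors), of which 47 rows were tested. Of these, 4 were called higher and 0 lower at the unadjusted threshold in limma, beside 3.28% and 5.29% of all tested transcripts, and 0 after adjustment. By overlap the directions were even: 6 of the 47 did not overlap and were higher in OFT-banded hearts, and 6 were lower, beside 5.23% and 11% of all tested transcripts. In collagen secretion, 10 of 17 were above 0, beside 36.8% of all tested transcripts, and none was called. Without overlap, 2 were higher (CRTAP and PDIA3) and 2 lower (MIA3 and P4HB). MIA3, the cargo receptor that loads procollagen for export, had 12.5, 12.9 and 11.8 RPKM in OFT-banded hearts and 14.7, 14.8 and 14.7 RPKM in sham hearts, with no overlap (log2 fold change -0.24, unadjusted p = 0.0564 from limma). CRTAP, part of the prolyl 3-hydroxylase complex, averaged 139 ± 0.631 RPKM in OFT-banded and 122 ± 12.7 RPKM in sham hearts. The disulphide isomerase PDIA3 averaged 569 ± 17.3 RPKM in OFT-banded and 508 ± 34.1 RPKM in sham hearts. The collagen-degrading protease CTSK averaged 41.6 ± 1.68 and 35.1 ± 5.02 RPKM (SD, n = 3 each). The groups did not overlap for CRTAP and PDIA3, both higher in OFT-banded hearts, and overlapped for CTSK.

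Among other matrix proteins, 12 of 20 were above 0 and 3 were called higher, beside 36.8% and 3.28% of all tested transcripts. Without overlap, 3 were higher (WISP1, CTGF and CYR61) and 2 lower (AGRN and VTN), beside 5.23% and 11%. WISP1, a CCN family matricellular protein, had 56.2, 67.4 and 55.5 RPKM in OFT-banded hearts and 39.8, 47.9 and 49.1 RPKM in sham hearts. Its groups did not overlap (log2 fold change 0.38, unadjusted p = 0.0158 from limma). CTGF, of the same family, had 82.7, 75.3 and 229 RPKM in OFT-banded hearts and 59.7, 56.7 and 59.4 RPKM in sham hearts, with no overlap and most of the difference in heart 17 (0.93, unadjusted p = 0.0467 from limma). SDC2 is a heparan sulphate proteoglycan of the cell surface. It had 49.8, 68.6 and 77.0 RPKM in OFT-banded hearts and 50.5, 46.8 and 40.8 RPKM in sham hearts. Its groups overlapped (0.47, unadjusted p = 0.0264 from limma). AGRN, agrin, a basement membrane proteoglycan that binds laminin, had 42.4, 58.0 and 57.4 RPKM in OFT-banded hearts and 58.5, 74.7 and 66.7 RPKM in sham hearts, with no overlap (-0.34, unadjusted p = 0.0553 from limma). CYR61 is a further CCN gene, chosen after its values were seen. It had 51.7, 51.0 and 266 RPKM in OFT-banded hearts and 47.2, 39.9 and 37.7 RPKM in sham hearts. The groups did not overlap, with most of the difference in heart 17 (1.09, unadjusted p = 0.110 from limma).

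Among matrix receptors, 2 of 10 were above 0, beside 36.8% of all tested transcripts. DAG1, dystroglycan, which binds laminin and agrin outside the cell, had 118, 106 and 109 RPKM in OFT-banded hearts, against 70.4, 86.9 and 93.3 RPKM in sham hearts. The groups did not overlap (log2 fold change 0.42, standard error 0.117, adjusted p = 0.543 and unadjusted p = 0.00904 from limma). DMD, dystrophin, which ties dystroglycan to actin, averaged 11.2 ± 1.20 RPKM in OFT-banded and 13.7 ± 0.769 RPKM in sham hearts, with no overlap. The integrin chain ITGA3 averaged 19.0 ± 0.609 RPKM in OFT-banded and 20.6 ± 1.16 RPKM in sham hearts, with no overlap (log2 fold change -0.11). The integrin chain ITGB5 averaged 38.2 ± 5.88 and 43.1 ± 7.65 RPKM (SD, n = 3 each). Its groups overlapped (log2 fold change -0.17).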

How the data were processed

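RNA of whole HH29 hearts, 3 OFT-banded and 3 sham, was depleted of globin transcripts, polyA selected and sequenced as paired ends. The submitters' processing notes name TopHat, HTSeq and DESeq as tools of the authors and galGal4 as the genome build; versions are not given in the sources used here. The authors computed the deposited RPKM values, 1 per RefSeq transcript and heart, and this was the only file used. RPKM are not counts and transcript lengths were not at hand, so no count test was run. Reads per library were inferred from the spacing of low values of microRNA rows, of which at least 98.4% lay within 0.1 of a whole read; the step of heart 42 was halved because 97.5% of its values were even.

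Each column name gives a group and a heart number, and since those numbers are absent from the labels, columns were assigned to groups only. P-values treat the 3 hearts of a group as replicates.

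RPKM were taken as log2(RPKM + 1), which understates changes of low genes. Transcripts averaging at least 1 RPKM were tested with limma 3.58.1 in R 4.3.3 (intensity trend, two-sided, Benjamini-Hochberg over 4726 transcripts, threshold 0.05), after a check on simulated data. Ratios were tested by exact permutation with scipy 1.17.1 in Python 3.11.15 (numpy 2.4.6, pandas 2.3.3), and figures were drawn with matplotlib 3.10.9. Levels are per kilobase of the authors' transcript models, so levels of different genes were compared only on that scale.

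Named genes were, per role group, the 4 members of highest mean, the 10 members of smallest p in each direction, TGM2, every tested member without overlap, and of each further list the 4 genes of smallest p; exceptions are named as such. The members and all lists were chosen with earlier results of these data known. Gene spans and gene neighbours came from the RefSeq gene table of GRCg7b, a later assembly than galGal4, matched by accession or symbol for 57 of 57 members and 99.2% of tested transcripts; no coordinates are given.

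The alternatives tried were no filter on low values, a mean of at least 5 RPKM, a pseudocount of 0.1, rescaling to the same sum (TPM), median-ratio scaling, globin rows left out, no intensity trend, robust moderation, the gene-span trend removed, transcripts summed per symbol, and each heart left out in turn. Leaving out hearts 6 and 38 together, and 7 of the 10 ratios, were added after the data were seen. Sequences were not analysed here.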

Additional observations from a re-analysis of the deposited data

How the results depend on the processing

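No paired analysis was possible because the heart numbers in the columns are not those of the labels, and no replicate block could be set. No member passed adjustment in any alternative. The members called at an unadjusted p under 0.05 were 1 higher and 3 lower; the higher count was 0 with rescaling to the same sum, 0 with globin rows left out, 2 with median-ratio scaling and 2 with the gene-span trend removed. The members without overlap were 1 higher and 3 lower, beside 5.23% and 11% of all tested transcripts. The higher count was 4 with median-ratio scaling (beside 7.79%) and 4 with the gene-span trend removed (beside 10.1%). The lower count was 5 with no filter (beside 8.28%), where MATN3 and MMP13 joined near 0. Without hearts 6 and 38 together the 4 counts were 4 higher and 6 lower by p, and 13 higher and 10 lower by overlap; COL5A1 turned to 0.0067, MMP9 to -0.14 and the log2 ratio of LOX to LOXL2 to -0.035. Over the fits that left out 1 heart in turn, the counts ran from 0 to 6 higher and 1 to 6 lower by p, and from 1 to 13 higher and 3 to 10 lower by overlap. All 4726 tested transcripts gave 78 to 213 higher and 118 to 438 lower calls in the same fits. By overlap, 6.9 to 12.2% of them were higher and 13.2 to 29.1% lower, the most in both directions without heart 38. Among the members, the most higher calls came without heart 6 and the most lower calls without heart 38. Without heart 42, TGM2 alone of the members was called. Calls gained were COL9A3 (0.58), PLOD1 (0.24) and TIMP3 (0.31) without heart 6, COL18A1 (-0.38) without heart 38 and COL2A1 without heart 11 (-0.48) or 38 (-0.45), beside those the text gives. In those fits the sign turned at least once for 23 of the 42 tested members, 11 of them without heart 38, 9 without each of hearts 6, 11 and 17, 4 without heart 48 and 1 without heart 42. Among the members of smallest p these were SPARC (-0.43 to 0.059), COL14A1 (-0.020 to 0.47) and MMP9 (-0.061 to 0.27). It also turned for the log2 ratios COL1A2 to COL3A1 (-0.065 to 0.035), COL9A3 to COL9A2 (-0.15 to 0.24), COL9A2 to COL9A1 (-0.12 to 0.36), LOX to LOXL2 (-0.39 to 0.48) and COL6A1 to COL6A2 (-0.15 to 0.10). The median over the members ran from -0.12 to 0.16 in them. The causes were not tested. All transcripts gave 155 higher and 250 lower calls as deposited, 231 and 176 with median-ratio scaling and 280 and 132 with the gene-span trend removed. The planned ratios COL1A1 to COL1A2 and LAMB1 to LAMC1 were not analysed here.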
